A study of Mus musculus with 11 samples.

Results

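Type I interferon-stimulated genes were described in RNA of 11 mouse heart libraries. The set holds 35 genes listed by symbol, out of 23420 genes in the table of normalized read counts. All 35 were present. Of these, 34 reached the mean of 10 needed for testing, as did 12976 genes in all, and Oas3 alone stayed below it.

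The libraries form 4 groups. EC KO (3 libraries) is heart tissue of mice in which a loxP-flanked Cd36 was deleted with Tie2-cre, meant for endothelial cells. CM KO (3 libraries) is heart tissue of mice with the same allele crossed to MHC-cre, meant for cardiomyocytes. Total KO (3 libraries) is labelled as a total knockout without a statement of how it was made, and Control (2 libraries) is heart tissue with no Cre named. All groups carry the same strain entry, which names mice with a loxP-flanked Cd36. The Cd36 protein sits at the cell surface and takes up long-chain fatty acids, and the design asks what endothelial Cd36 does for lipid and glucose metabolism. Tie2-cre is known to act in blood cells as well as in endothelium. No age, sex or batch is given. Nothing in the labels says that libraries come from separate animals, so the p-values reflect only how these libraries vary, which may be technical.

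Type I interferons bind the receptor formed by IFNAR1 and IFNAR2, and the kinases JAK1 and TYK2 then start a signal to the nucleus. STAT2 and IRF9 take part in it within the ISGF3 complex, which binds the interferon-stimulated response element in promoters. The genes it switches on encode sensors of viral RNA, proteins that block viral translation or budding, and factors such as IRF7 that amplify the response. In the heart these genes are known for defence against viruses and for induction in infiltrating macrophages after injury.

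Recovered reads ran from 11157062 to 20105673 per library, apart from EC KO replicate 1 with 2268403. In that library the median gene of the set had 33 reads, against 122 to 393 in the other libraries, and 7 of the 35 genes had fewer than 10 reads. CM KO replicate 1 stood apart on the first principal component over all genes, at 58.9 against 24.3 and 32.3 for the other CM KO libraries and -17.3 to 1.81 for the rest apart from EC KO replicate 1. That library stood apart too, at -40.4 on the first component and 46.3 on the second, where all others lay between -15.4 and 18.1. Cd36 read 30308, 27804 and 25758 in EC KO hearts, 15792, 21610 and 21363 in CM KO hearts, and 18847, 23452 and 21266 in Total KO, against 44530 and 35425 in Control. Each knockout library was below both Control libraries, and Total KO libraries still held Cd36 reads; single exons were not analysed here. The label numbers of CM KO lie apart from all others, and those of Total KO lie apart from the interleaved EC KO and Control numbers. What the numbers stand for is not stated, so such a grouping and the genotype cannot be told apart for CM KO or Total KO. All 7 cardiomyocyte markers were above 0 in every library. Their summed values were 668959 to 977492 in CM KO and 1059990 to 1226068 in the other groups.

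Few of the interferon-stimulated genes passed a test between groups. Against Control, no gene passed the test in EC KO or Total KO, beside 0.316% and 0.0848% of all genes. In CM KO 1 of 34, the TRIM family gene Trim12a, was lower, beside 2.4% of all genes. Between knockout groups, 4 genes differed between EC KO and CM KO and 2 between Total KO and CM KO. Of all genes, 19.1% and 16.4% differed in these comparisons. The interferon-induced translation blocker Ifit2 and the myeloid transcription factor Irf8 were lower in EC KO than in CM KO, while Trim12a and the apoptosis factor Xaf1 were higher. Total KO had less Ifit2 and more Trim12a than CM KO.

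Tests were limma fits to log2(value + 1) over all genes, with Benjamini-Hochberg adjusted p under 0.05 as the call. In EC KO minus Control, 0 of 34 were called, beside 0.316% of all genes tested. At an unadjusted p under 0.05 there was 1 (2.94%, against 10.5% of all genes), and edgeR and DESeq2 called 0, against 50 and 162 of all genes. In Total KO minus Control, 0 were called, beside 0.0848% of all genes, with 1 at an unadjusted p under 0.05 (2.94%, against 8.11% of all genes). Here edgeR and DESeq2 called 0, against 14 and 93 of all genes. In CM KO minus Control, the 1 call stood beside 5.7% of all genes called and 2.4% called lower. That background moved with the fit. Over all genes 739 were called, against 26 without Control replicate 1 and 599 without Control replicate 2. A fit to CM KO and Control alone called 63. Trim12a was called in each of these fits. The 4 calls in EC KO minus CM KO, 11.8% of the set, stood beside 19.1% of all genes. The 2 in Total KO minus CM KO, 5.88%, stood beside 16.4%. In Total KO minus EC KO, 0 were called, beside 0.0385% of all genes, with 1 at an unadjusted p under 0.05 (2.94%, against 10.4% of all genes). Here too edgeR and DESeq2 called 0, against 4 and 70 of all genes. A joint F test of the 3 knockout groups against Control called Ifit2 and Trim12a, 2 of 34, beside 14.3% of all genes.

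The median log2 difference from Control over the 34 genes was -0.114 in EC KO, -0.115 in CM KO and -0.114 in Total KO, against -0.012, -0.004 and 0.000 over all genes. The 3 contrasts share the same 2 Control libraries. Whether the set as a whole shifted was not tested. Below 0 lay 24 of 34 genes in EC KO, 21 in CM KO and 23 in Total KO.

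**Figure D1:**
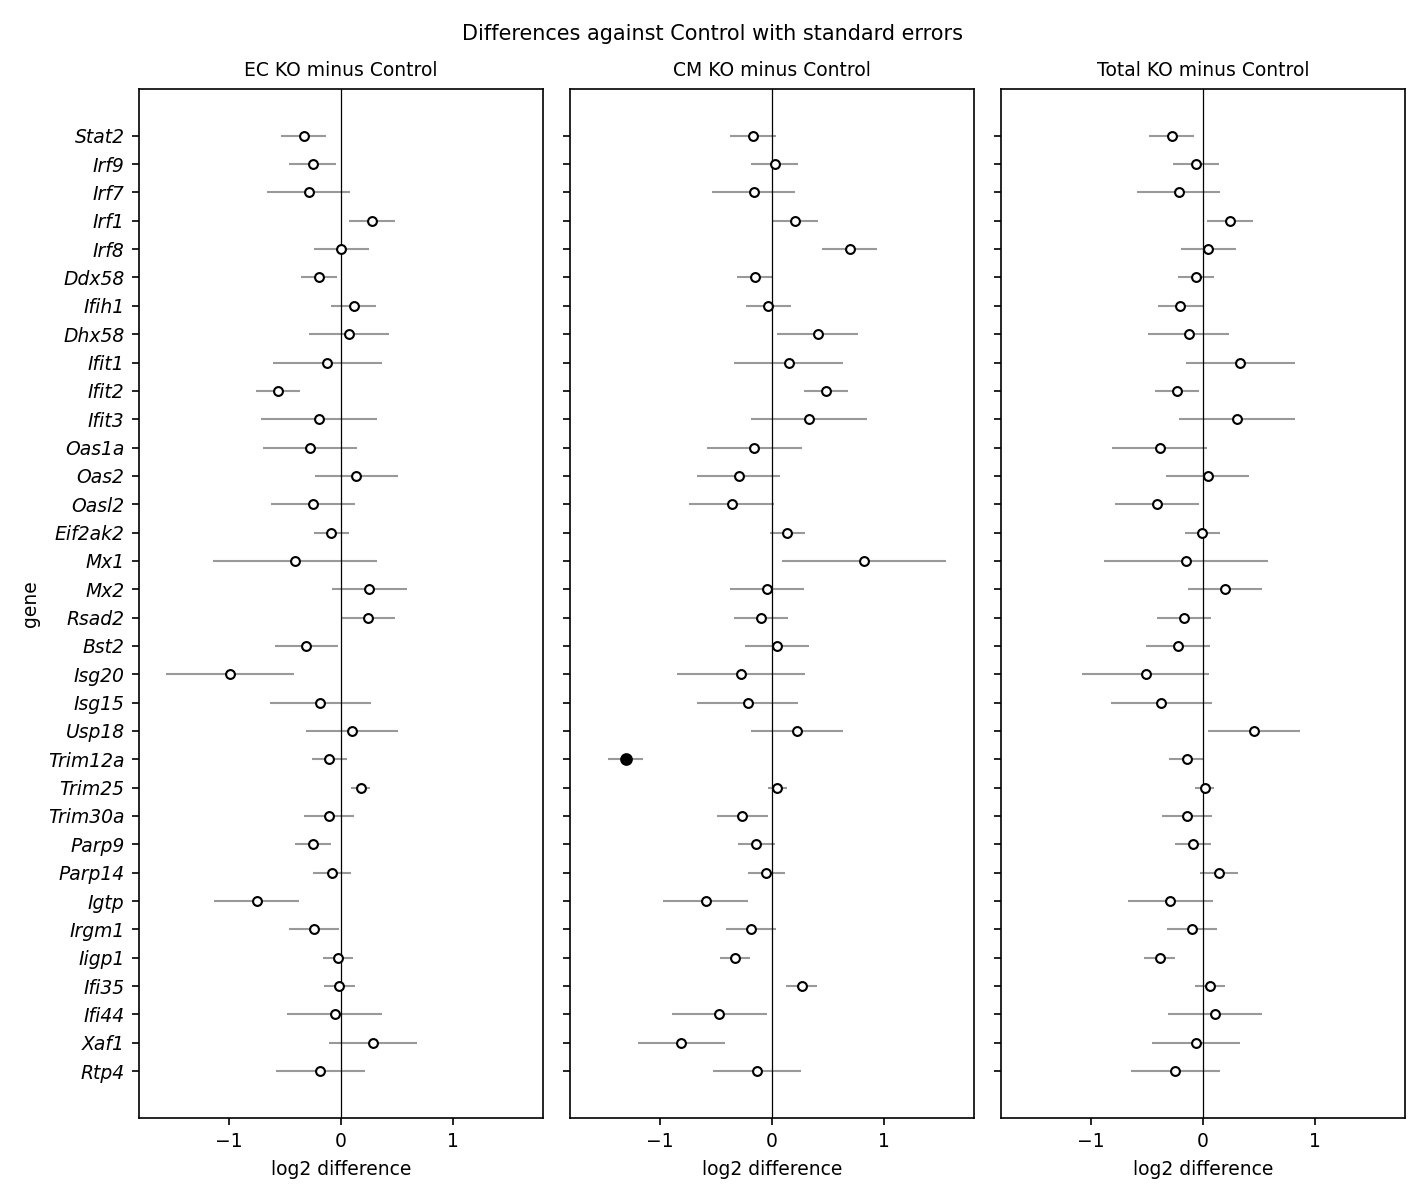
Log2 difference from Control (horizontal axis, on the log2(value + 1) scale) for the 34 genes tested (vertical axis), in EC KO, CM KO and Total KO. Points are limma estimates, bars are 1 standard error, and filled points passed the test; the single filled point is Trim12a in CM KO, at -1.31.

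Within each group the libraries had a wider median spread in these genes than over all genes tested. The median standard deviation of log2 values within a group was 0.284 for the set against 0.159 for all genes in EC KO, 0.318 against 0.164 in CM KO, 0.261 against 0.131 in Total KO, and 0.237 against 0.154 in Control. In each group 1 library held the highest value of most of the genes. It was EC KO replicate 3 for 24 of 34 genes (70.6%), where 33.2% of all genes tested were highest. It was CM KO replicate 1 for 32 of 34 (94.1%, against 39.2% of all genes) and Total KO replicate 2 for 29 of 34 (85.3%, against 33.9%). In Control it was replicate 2 for 30 of 34 (88.2%, against 49.4%). These shares describe a pattern noticed in the data, and it was not tested.

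In the library where they were highest, the genes exceeded their group mean by a median of 0.25 in EC KO, 0.34 in CM KO, 0.26 in Total KO and 0.15 in Control on the log2 scale, where the median of all genes lay between -0.003 and 0.007. The transcription factor gene Irf1 and the resistance GTPase gene Iigp1 were the 2 genes not highest in CM KO replicate 1, and Iigp1 was not highest in EC KO replicate 3 or Total KO replicate 2 either. In Total KO replicate 2 the others were Oas1a, Usp18, Trim12a and Trim25, and in Control replicate 2 they were Ddx58, Dhx58, Trim30a and Xaf1. The genes listed as other interferon-induced genes, none of them in the set, had the same libraries on top: 24 of 41 (58.5%) in EC KO replicate 3, 37 (90.2%) in CM KO replicate 1, 30 (73.2%) in Total KO replicate 2 and 29 (70.7%) in Control replicate 2.

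**Figure D2:**
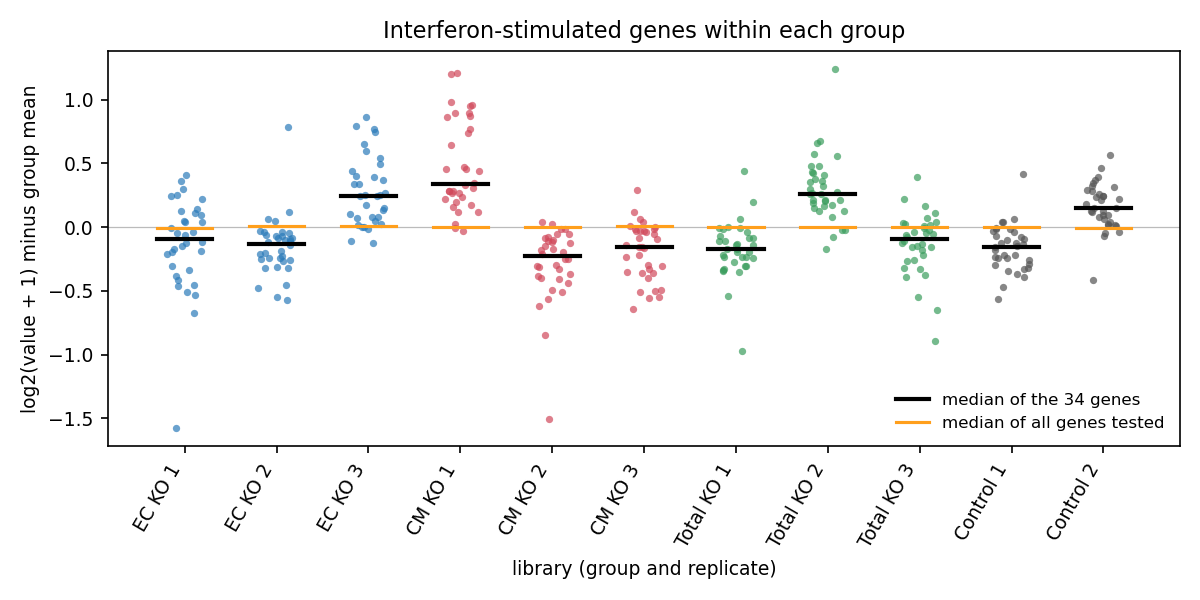
Deviation of log2(value + 1) from the gene's group mean (vertical axis) for the 34 genes in each of the 11 libraries (horizontal axis). Each dot is a gene, black lines are medians over the 34 genes and orange lines medians over all genes tested; the black line lies highest in EC KO replicate 3 (0.25), CM KO replicate 1 (0.34), Total KO replicate 2 (0.26) and Control replicate 2 (0.15).

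Markers of macrophages and monocytes, taken as a sum, were highest in the same libraries. Their summed value was 3021, 3112 and 3398 in EC KO hearts, 10848, 6122 and 7861 in CM KO hearts, and 3263, 4332 and 3601 in Total KO, against 3278 and 3530 in Control. The library with the highest sum in its group was the one with most interferon-stimulated genes on top, in all 4 groups. Single markers were less uniform: of 9, 6 were highest in EC KO replicate 3 and 6 in Control replicate 2. In CM KO replicate 1 it was 9 and in Total KO replicate 2 it was 7. All 9 markers in the table were above 0 in every library, 8 of them were higher in CM KO than in Control, and their part in the interferon-stimulated genes was not tested. In whole tissue, fewer cells of a type and less RNA per cell cannot be told apart. Fibroblast markers summed to 29569, 17181 and 22826 in CM KO and to 12184 to 15054 in the other groups. Markers of T and NK cells summed to at most 26.99 in any library and those of B cells to at most 29.84, with none of either list reaching the mean needed for testing.

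**Figure D3:**
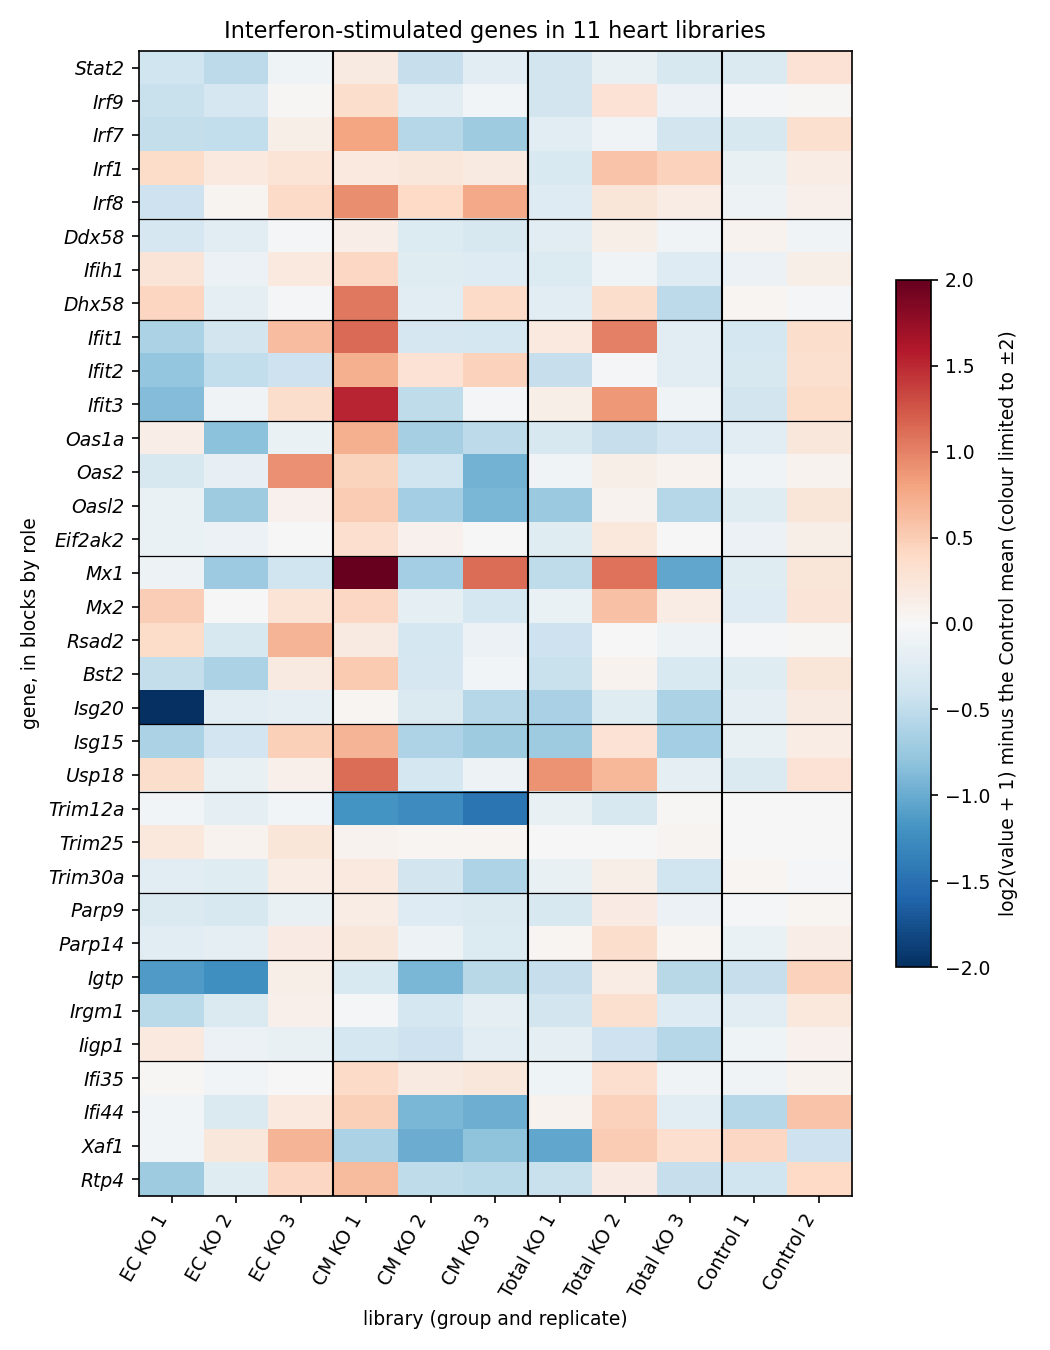
Log2(value + 1) minus the Control mean (colour, limited to values between -2 and 2) for the 34 genes tested (rows, in blocks by role) in each of the 11 libraries (columns). Within the CM KO block most genes are higher in replicate 1 than in replicates 2 and 3, while Trim12a is low in all 3 CM KO libraries.

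The sequences ahead of the start sites of these genes were searched for the core of the interferon-stimulated response element. The core is GAAANNGAAA, or TTTCNNTTTC on the other strand, where N is any base. RefSeq's windows on GRCm38.p6 (the assembly that mm10 names), from 250 bases before to 50 bases after each start, were available for 26 of the 35 genes. Dhx58, Oas2, Mx1, Mx2, Usp18, Parp9, Parp14, Iigp1 and Rtp4 had none. The core occurred in 15 of the 26 genes (57.7%), against 1079 of 27025 genes with a window (3.99%). The genes were listed as interferon-stimulated, so a high share follows from the list and does not bear on how the libraries varied. The gamma-activated sequence TTCNNNGAA, its own reverse complement and known from genes that respond to interferon gamma, occurred in 9 of the 26 (34.6%), against 9.55% of genes. Both motifs were present in 149 of 32851 windows, and a match describes letters, not binding.

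The 200 bases before the start are shown for 5 of the genes with a core: the canonical antiviral genes Isg15, Ifit1 and Rsad2, and the resistance GTPase genes Igtp and Irgm1. They are written 5′ to 3′ on the strand of the gene, with each match in capitals, and the last base is the one before the start (-1). They are chr4:156200819-156201018 (minus strand), chr19:34640689-34640888 (plus strand), chr12:26456453-26456652 (minus strand), chr11:58199356-58199555 (plus strand) and chr11:48871421-48871620 (minus strand) on GRCm38.p6, in that order.
Isg15: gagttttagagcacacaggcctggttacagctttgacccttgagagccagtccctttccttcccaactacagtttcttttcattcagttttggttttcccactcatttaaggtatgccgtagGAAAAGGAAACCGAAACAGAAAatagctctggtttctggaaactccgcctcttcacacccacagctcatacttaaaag
Ifit1: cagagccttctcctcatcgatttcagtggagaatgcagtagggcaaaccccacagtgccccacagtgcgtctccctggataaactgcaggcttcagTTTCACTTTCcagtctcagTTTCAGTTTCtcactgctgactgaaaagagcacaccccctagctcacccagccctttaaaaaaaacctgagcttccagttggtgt
Rsad2: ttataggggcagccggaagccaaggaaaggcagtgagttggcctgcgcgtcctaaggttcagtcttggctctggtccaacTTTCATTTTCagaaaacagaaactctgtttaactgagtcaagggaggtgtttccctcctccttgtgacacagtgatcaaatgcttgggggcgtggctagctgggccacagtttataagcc
Igtp: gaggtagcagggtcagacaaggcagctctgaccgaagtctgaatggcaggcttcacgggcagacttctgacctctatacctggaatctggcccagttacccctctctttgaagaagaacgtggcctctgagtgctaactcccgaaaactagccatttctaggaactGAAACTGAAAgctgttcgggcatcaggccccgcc
Irgm1: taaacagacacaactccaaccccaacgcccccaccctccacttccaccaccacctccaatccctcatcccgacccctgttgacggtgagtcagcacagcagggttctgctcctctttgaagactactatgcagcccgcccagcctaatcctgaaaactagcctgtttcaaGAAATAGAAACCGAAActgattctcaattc

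Isg15 had 3 overlapping matches, beginning at -78, -72 and -66, in 1 run. Ifit1 had 2 on the other strand, from -104 and -85, and Rsad2 had 1 from -120. Igtp had 1 close to the start, from -34, and Irgm1 had 2 that overlap, from -30 and -24. In all 5 genes CM KO replicate 1 was the highest CM KO library and Total KO replicate 2 the highest Total KO library. Control replicate 2 was the higher Control library in all 5. The same held for 32, 29 and 30 of the 34 genes tested, in that order of libraries. Of other genes with a core, Ddx58 and Trim30a were higher in Control replicate 1, and Oas1a and Trim12a were not highest in Total KO replicate 2. Irf7 and Irf9 had no core and were highest in the same libraries. A link between the core and this pattern was not tested.

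Trim12a, the gene with the largest difference between groups, also had a match, but just after the start used for its window. The 30 bases from that start, chr7:104315466-104315495 on the minus strand, hold it from base 11. That start lies inside the gene's bounds, chr7:104299893-104315558. Of the other genes that passed a test, Ifit2 and Irf8 had the gamma-activated sequence and no core in their windows, and Xaf1 had neither. The windows of Ifit2 and Xaf1 are also placed by starts inside their gene bounds. The bases ahead of those bounds were therefore searched only in part.
Trim12a: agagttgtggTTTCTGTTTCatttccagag

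Among the transcription factors, 1 of 5 passed the test, Irf8 in EC KO minus CM KO, where 19.1% of all genes were called. Stat2, whose product works with IRF9 in ISGF3, had 338, 310 and 423 normalized reads in EC KO hearts, 505, 323 and 383 in CM KO hearts, and 346, 401 and 357 in Total KO, against 366 and 544 in Control. The groups overlapped, with CM KO replicate 1 and Control replicate 2 high. Differences from Control were -0.33 ± 0.20 in EC KO, -0.17 ± 0.20 in CM KO and -0.28 ± 0.20 in Total KO (log2 ± SE), and none passed.

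Irf9, the DNA-binding part of ISGF3, had 248, 265 and 340 in EC KO hearts, 430, 288 and 323 in CM KO hearts, and 261, 412 and 310 in Total KO, against 332 and 340 in Control. All 3 knockout groups overlapped Control, and the differences of -0.25, 0.02 and -0.06 in EC KO, CM KO and Total KO did not pass, with a standard error of 0.21 each. Irf7, which amplifies interferon production, had 181, 179 and 275 in EC KO hearts, 440.5, 171 and 154 in CM KO hearts, and 218, 242 and 197 in Total KO, against 202 and 318 in Control. CM KO replicate 1 held the highest Irf7 value of all libraries and CM KO replicate 3 the lowest, 2.87-fold apart. Irf1, an early factor downstream of interferon gamma as well, averaged 476 ± 29.5 in EC KO hearts, 451 ± 8.62 in CM KO hearts and 478 ± 141 in Total KO, against 394 ± 59.4 in Control (SD), and did not pass in any comparison.

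Irf8, a factor of the myeloid and dendritic cell lineages (chr8:120736358-120756694, plus strand), had 60.4, 83.6 and 105 in EC KO hearts, 154, 106 and 137 in CM KO hearts, and 67.5, 95.5 and 90.1 in Total KO, against 75.4 and 86.5 in Control. Every CM KO library lay above every other library, although CM KO replicate 2 and EC KO replicate 3 were close, at 106.2 and 105.2. The difference was -0.69 ± 0.22 in EC KO minus CM KO (limma, adjusted p = 0.0469), the call nearest to the threshold. It was -0.65 ± 0.22 in Total KO minus CM KO (adjusted p = 0.0648) and 0.69 ± 0.25 in CM KO minus Control (adjusted p = 0.127). Beside it, all 9 macrophage and monocyte markers tested were lower in EC KO than in CM KO, with a median of -1.31, and their part in Irf8 was not tested. Without CM KO replicate 1 the EC KO minus CM KO difference was -0.57 (limma, adjusted p = 0.161) and without EC KO replicate 1 -0.48 (adjusted p = 0.156). It was called in 3 of 11 fits that each left out a library and in 9 of all 22 settings. Neither edgeR (-0.57, adjusted p = 0.0697) nor DESeq2 (-0.58, adjusted p = 0.0714) called it.

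The 3 sensors of viral RNA did not pass in any comparison. Ddx58, which encodes RIG-I, had 248, 269 and 310 in EC KO hearts, 344, 260 and 252 in CM KO hearts, and 267, 341 and 300 in Total KO, against 330 and 300 in Control. Ifih1, which encodes MDA5, a sensor of long double-stranded RNA, had 224, 172 and 214 in EC KO hearts, 248, 158 and 155 in CM KO hearts, and 154, 177 and 155 in Total KO, against 171 and 204 in Control. Both genes overlapped between all groups, and their 6 differences from Control lay between -0.20 and 0.11. Dhx58, which encodes LGP2, a regulator of the other two, averaged 42.8 ± 10.2 in EC KO hearts, 56.9 ± 25.2 in CM KO hearts and 37.7 ± 12.2 in Total KO, against 40.0 ± 1.72 in Control.

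The IFIT genes encode proteins that bind foreign RNA and hold back its translation. Ifit2 (chr19:34550550-34576534, plus strand) differed between knockout groups while its neighbours Ifit1 and Ifit3, in the same cluster, did not pass the test. It had 375, 453 and 483 in EC KO hearts, 1047, 786 and 879 in CM KO hearts, and 463, 632 and 556 in Total KO, against 515 and 799 in Control. The CM KO libraries lay above every EC KO and Total KO library and overlapped Control, of which replicate 2 exceeded 1 CM KO library.

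The Ifit2 difference in EC KO minus CM KO was -1.05 ± 0.17 (limma, adjusted p = 0.00227). In Total KO minus CM KO it was -0.72 ± 0.17 (adjusted p = 0.0166). In EC KO minus Control it was -0.56 ± 0.19 (adjusted p = 0.328) and in CM KO minus Control 0.48 ± 0.19 (adjusted p = 0.173). Without CM KO replicate 1 the first was -0.93 (adjusted p = 0.009) and the second -0.61 (adjusted p = 0.069). The second call was also lost without Total KO replicate 1 (-0.60, adjusted p = 0.0642) or Total KO replicate 3 (-0.73, adjusted p = 0.0506), and without Control replicate 2 the CM KO minus Control difference became a call (0.80, adjusted p = 0.0493). The macrophage and monocyte markers, higher in CM KO, moved in the same direction, and their part was not tested.

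Ifit1 had 78.6, 94.5 and 188 in EC KO hearts, 268.5, 95.8 and 95.7 in CM KO hearts, and 140, 246 and 105 in Total KO, against 95.6 and 155 in Control. Ifit3 had 72.5, 126 and 170 in EC KO hearts, 384, 92.6 and 130 in CM KO hearts, and 144, 243 and 127 in Total KO, against 103 and 171.5 in Control. In both genes CM KO replicate 1 and Total KO replicate 2 were the highest of all libraries, and the CM KO libraries of Ifit3 spread 4.15-fold. Their standard errors against Control were 0.49 and 0.52, beside 0.19 for Ifit2, and no difference passed. Ifit2 was highest in the same libraries within each group, but its CM KO level stayed high in replicates 2 and 3.

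The OAS enzymes make short adenylate chains that switch on RNase L, and Eif2ak2 encodes PKR, a kinase that stops translation on double-stranded RNA. Oas2 had 248, 275 and 583 in EC KO hearts, 422, 236 and 161 in CM KO hearts, and 295, 337 and 327 in Total KO, against 296 and 324 in Control. Its libraries spread 2.35-fold in EC KO and 2.62-fold in CM KO, against 1.14-fold in Total KO and 1.09-fold in Control, and no Oas2 difference passed. Oasl2, a family member, averaged 189 ± 50.6 in EC KO hearts, 188 ± 107 in CM KO hearts and 169 ± 52.6 in Total KO, against 222 ± 51.1 in Control. Oas1a ranged from 15.1 to 45.5 over all libraries and did not pass. Oas3 was not tested, with values from 0 to 18.5, the highest in CM KO replicate 1. Eif2ak2 did not pass either and averaged 218.5 ± 10.7 in EC KO hearts, 257 ± 31.8 in CM KO hearts and 233 ± 36.3 in Total KO, against 233 ± 28.1 in Control.

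Of the 5 other antiviral effectors, none passed in a comparison. Mx1, a dynamin-like GTPase that traps viral nucleocapsids, had 12.1, 7.53 and 9.73 in EC KO hearts, 56.3, 7.77 and 29.4 in CM KO hearts, and 8.91, 29.0 and 5.84 in Total KO, against 10.9 and 15.7 in Control. The CM KO libraries spread 7.25-fold, and the EC KO minus CM KO difference of -1.23 ± 0.66 did not pass (limma, adjusted p = 0.209). Without CM KO replicate 2 it did, at -1.98 (adjusted p = 0.0331). RefSeq lists Mx1 and its relative Mx2 as transcribed pseudogenes in the reference strain. Mx2 averaged 30.8 ± 5.59 in EC KO hearts, 25.2 ± 7.67 in CM KO hearts and 29.9 ± 7.84 in Total KO, against 25.8 ± 6.78 in Control.

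Rsad2, which encodes viperin, a radical-SAM enzyme that makes a chain-terminating nucleotide, had 689, 426 and 858.5 in EC KO hearts, 601, 418 and 492 in CM KO hearts, and 401, 530.3 and 498 in Total KO, against 523 and 543 in Control. EC KO replicates 1 and 3 held the 2 highest values, while EC KO replicate 2 lay among the lowest. The difference in EC KO minus CM KO was 0.34 ± 0.22 (limma, adjusted p = 0.286) and 0.62 without EC KO replicate 2 (adjusted p = 0.035). Bst2, which encodes tetherin and holds budding virus at the cell surface, had 151, 136 and 240.5 in EC KO hearts, 303, 167 and 204 in CM KO hearts, and 155, 222.5 and 171 in Total KO, against 178 and 250.5 in Control. Its groups overlapped and its differences from Control were -0.31, 0.04 and -0.22 in EC KO, CM KO and Total KO, with a standard error of 0.28. Isg20, an exonuclease gene, ranged from 6.04 in EC KO replicate 1, the value of a single read there, to 46.2 in Control replicate 2.

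Isg15 encodes a ubiquitin-like protein that is joined to newly made proteins, and Usp18 the protease that removes it and also dampens the interferon receptor. Isg15 had 36.3, 43.5 and 79.6 in EC KO hearts, 91.8, 36.9 and 34.4 in CM KO hearts, and 34.4, 69.9 and 35.03 in Total KO, against 51.3 and 63.4 in Control. The highest library exceeded the lowest 2.19-fold in EC KO, 2.67-fold in CM KO and 2.03-fold in Total KO, and all groups overlapped. Usp18 had 84.6, 59.4 and 70.7 in EC KO hearts, 144, 51.8 and 61.3 in CM KO hearts, and 124, 105 and 57.6 in Total KO, against 53.6 and 81.3 in Control. Differences from Control were -0.18, -0.22 and -0.37 for Isg15 and 0.10, 0.22 and 0.45 for Usp18 in EC KO, CM KO and Total KO, with standard errors of 0.45 and 0.41, and none passed.

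Among the TRIM genes, which encode ubiquitin ligases of innate immunity, Trim12a (chr7:104299893-104315558, minus strand) had the smallest adjusted p of the set. It had 145, 131 and 145 in EC KO hearts, 65.6, 62.2 and 54.0 in CM KO hearts, and 136, 121 and 153.5 in Total KO, against 150 and 151 in Control. All 3 CM KO libraries lay well below every library of the other groups. The difference was -1.31 ± 0.16 in CM KO minus Control (limma, adjusted p = 0.0018), 1.20 ± 0.14 in EC KO minus CM KO (adjusted p = 0.000377) and 1.16 ± 0.14 in Total KO minus CM KO (adjusted p = 0.000751).

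Trim12a was called in all 22 settings in each of these 3 comparisons, with the CM KO minus Control difference between -1.39 and -1.22. Without CM KO replicate 1 that difference was -1.36 (adjusted p = 0.00209). Replicate 1 was its highest CM KO library, as for most of the set, but only slightly above replicates 2 and 3. In EC KO minus Control and Total KO minus Control the differences were -0.10 ± 0.16 and -0.14 ± 0.16. The CM KO label numbers lie apart in every setting, so such a grouping and the genotype cannot be told apart for Trim12a. Cardiomyocyte markers had a median of -0.33 in CM KO minus Control, with 0 of 7 called, and their part in Trim12a was not tested.

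**Figure D4:**
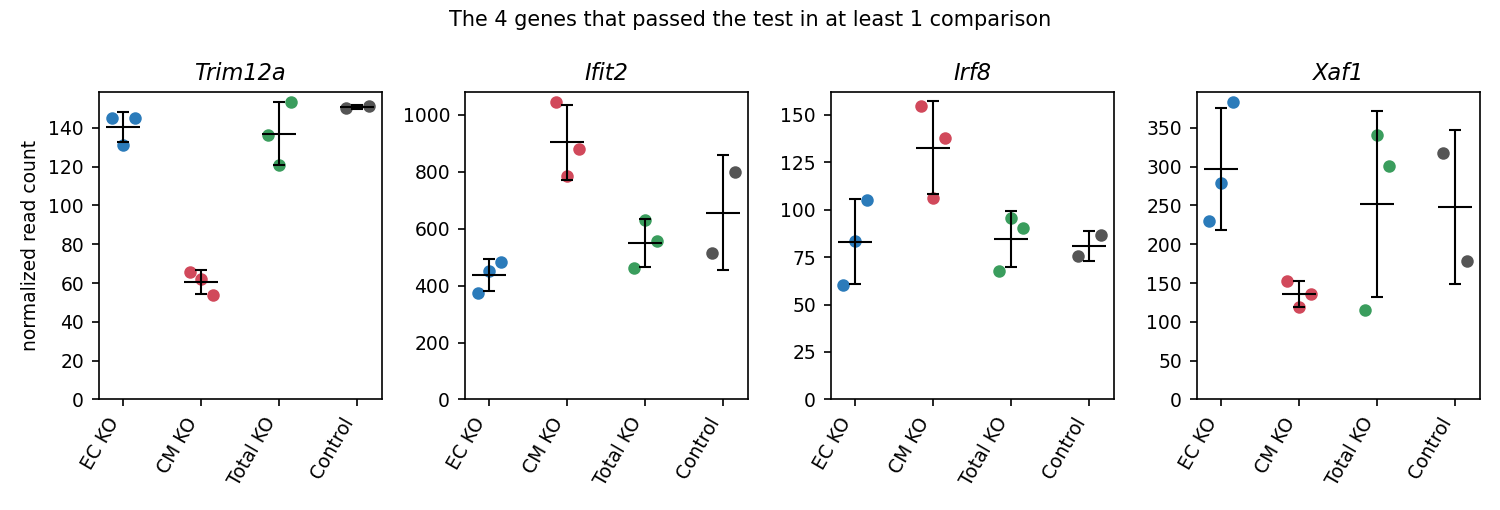
Normalized read count (vertical axes, from 0) of Trim12a, Ifit2, Irf8 and Xaf1 in EC KO, CM KO, Total KO and Control. Dots are libraries, horizontal bars means and whiskers standard deviations; the CM KO dots of Trim12a (54.0 to 65.6) lie below all others, and those of Irf8 (106 to 154) above all others.

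Trim12a lies in a cluster of TRIM genes on chromosome 7, and its neighbours within 200 kb were looked at after the values of Trim12a were seen. Trim34a, an interferon-induced TRIM gene with its midpoint 54.4 kb away, was lower in CM KO too. It had 121, 93.7 and 110 in EC KO hearts, 56.3, 31.7 and 45.0 in CM KO hearts, and 87.8, 124 and 92.6 in Total KO, against 97.2 and 87.2 in Control, with no CM KO library overlapping any other. The difference was -1.07 ± 0.24 in CM KO minus Control (limma, adjusted p = 0.0254), 1.30 ± 0.22 in EC KO minus CM KO (adjusted p = 0.0023) and 1.20 ± 0.22 in Total KO minus CM KO (adjusted p = 0.00518).

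Trim12c, the near-copy of Trim12a 38.3 kb to the other side, read 232, 175.5 and 187 in CM KO against 180 and 164 in Control, a difference of 0.19 ± 0.18 (limma, adjusted p = 0.604). Trim6, Trim30a and Trim30d differed by -0.05 ± 0.37, -0.26 ± 0.22 and -0.69 ± 0.35 in CM KO minus Control, and none passed. How reads shared by Trim12a and Trim12c were counted is not given in the sources used here. Trim30a averaged 198 ± 31.1 in EC KO hearts, 181 ± 54.6 in CM KO hearts and 193.5 ± 34.7 in Total KO, against 211 ± 7.83 in Control. Trim25, the ligase that activates RIG-I, had the smallest standard errors of the set, 0.087 against Control, and differed from Control by 0.17 in EC KO, 0.05 in CM KO and 0.01 in Total KO.

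**Figure D5:**
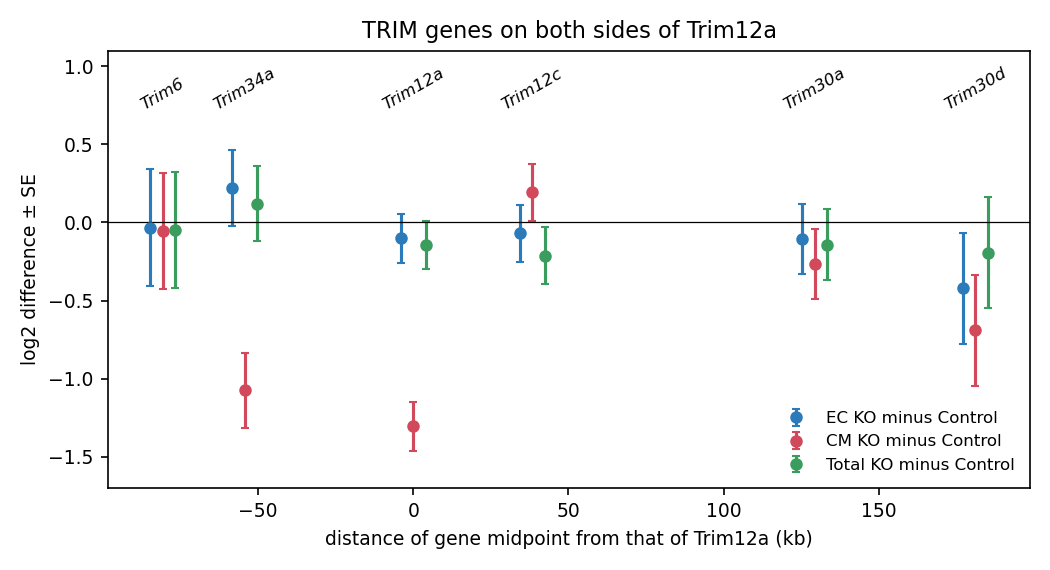
Log2 difference from Control with its standard error (vertical axis) for Trim6, Trim34a, Trim12a, Trim12c, Trim30a and Trim30d, by distance of the gene's midpoint from that of Trim12a in kb (horizontal axis). In CM KO, Trim34a (-1.07) and Trim12a (-1.31) lie below the others, while in EC KO and Total KO every gene lies between -0.42 and 0.22.

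Parp9 and Parp14, which encode proteins of the ADP-ribosyltransferase family, did not pass. Parp9 averaged 310.5 ± 20.0 in EC KO hearts, 338 ± 59.7 in CM KO hearts and 349 ± 60.2 in Total KO, against 368 ± 13.9 in Control. Parp14 averaged 538 ± 82.3 in EC KO hearts, 550.3 ± 97.9 in CM KO hearts and 625 ± 83.6 in Total KO, against 566 ± 71.6 in Control.

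The IRG GTPases attack the vacuoles of intracellular parasites in mice and respond to interferon gamma as well as type I interferon. Iigp1 had 1662, 1329 and 1310 in EC KO hearts, 1129, 1088 and 1251 in CM KO hearts, and 1270, 1090 and 978 in Total KO, against 1358 and 1544 in Control. All CM KO and Total KO libraries lay below all EC KO and Control libraries. The differences were -0.33 ± 0.14 in CM KO minus Control (limma, adjusted p = 0.184), -0.39 ± 0.14 in Total KO minus Control (adjusted p = 0.43), 0.30 ± 0.12 in EC KO minus CM KO (adjusted p = 0.096) and -0.36 ± 0.12 in Total KO minus EC KO (adjusted p = 0.348), and none passed. Igtp averaged 331 ± 188 in EC KO hearts, 340 ± 71.5 in CM KO hearts and 423 ± 118 in Total KO, against 533 ± 237 in Control. Irgm1 averaged 470 ± 107 in EC KO hearts, 482 ± 54.7 in CM KO hearts and 523 ± 144 in Total KO, against 553.5 ± 117 in Control.

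Xaf1, an interferon-induced promoter of apoptosis (chr11:72301461-72313733, plus strand), had 230, 278.5 and 383 in EC KO hearts, 153, 120 and 136 in CM KO hearts, and 116, 340 and 300 in Total KO, against 318 and 178 in Control. The EC KO and CM KO libraries did not overlap, while Total KO replicate 1 lay below all CM KO libraries and the Control libraries were 1.78-fold apart. Endothelial markers summed to 17403 to 19848 in EC KO, 13469 to 14128 in CM KO and 14469 to 15758 in Total KO, against 15714 and 16342 in Control. Of 7 such markers, 5 were higher in EC KO than in CM KO (median 0.41). Of 7 cardiomyocyte markers, 2 were higher there too (median 0.43). The part of either list in Xaf1 was not tested. The difference was 1.09 ± 0.35 in EC KO minus CM KO (limma, adjusted p = 0.0451), 0.75 ± 0.35 in Total KO minus CM KO (adjusted p = 0.169) and -0.81 ± 0.39 in CM KO minus Control (adjusted p = 0.259). The EC KO minus CM KO difference was 1.18 without CM KO replicate 1 (adjusted p = 0.0806), 1.26 without EC KO replicate 1 (adjusted p = 0.0553) and called in 4 of 11 fits that each left out a library. Without Total KO replicate 1 the Total KO minus CM KO difference was called, at 1.23 (adjusted p = 0.0174).

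Ifi35, Ifi44 and Rtp4, an interferon-induced adaptor gene, a GTP-binding family gene and a chaperone gene of membrane receptors, did not pass. Ifi35 averaged 322 ± 10.2 in EC KO hearts, 392 ± 28.5 in CM KO hearts and 343 ± 59.5 in Total KO, against 326 ± 24.8 in Control. Ifi44 averaged 91.8 ± 15.5 in EC KO hearts, 76.7 ± 48.5 in CM KO hearts and 104 ± 25.5 in Total KO, against 102 ± 54.0 in Control. Rtp4 averaged 101 ± 40.6 in EC KO hearts, 108 ± 54.5 in CM KO hearts and 94.1 ± 24.9 in Total KO, against 113.5 ± 42.9 in Control.

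Levels can be compared between genes as the mean over all libraries per kilobase of merged exon. By that measure Iigp1 was the most abundant (407 normalized reads per kb), followed by Ifi35 (255), Bst2 (250.1), Irgm1 (218), Igtp (195.5) and Trim25 (184). Ifit2 (166), Rsad2 (144) and Irf1 (136) came next, and Irf9 (104), Irf7 (97.9), Stat2 (88.8), Isg15 (69.3) and Ifit1 (53.5) lay in the middle. At the low end were Isg20 (20.0), Dhx58 (18.6), Oas1a (13.0), Mx2 (11.6), Mx1 (5.18) and Oas3 (1.06). The hearts thus held the GTPases of parasite defence at higher levels than the sensors of viral RNA Ddx58 (75.6) and Ifih1 (33.8).

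Reads could be shared with other genes in several cases. Exons overlap those of another gene on the same strand for Irf9 (Rnf31), Igtp (Irgm2), Parp14 (Gm49730) and Rtp4 (Gm45338). They overlap on the other strand for Irf1, Dhx58, Eif2ak2, Usp18, Parp9 and Ifi35. The library kit marks strand, but the strand setting of the counting is not given in the sources used here. Near-copies also exist for Ifit1, Ifit3, Oas1a and Trim30a, so their levels are uncertain to that extent.

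Upstream of these genes, Ifnar1, Ifnar2 and Irf3 did not pass in any comparison. Ifnar1, the receptor's signalling chain, averaged 586 ± 30.6 in EC KO hearts, 614 ± 16.2 in CM KO hearts and 562 ± 30.5 in Total KO, against 605 ± 65.7 in Control. Ifnar2, its binding chain, averaged 548 ± 4.74 in EC KO hearts, 589 ± 54.6 in CM KO hearts and 553 ± 41.8 in Total KO, against 576 ± 8.35 in Control. Irf3, which switches on the interferon beta gene, averaged 509 ± 31.3 in EC KO hearts, 521 ± 26.9 in CM KO hearts and 539 ± 30.7 in Total KO, against 543 ± 48.3 in Control. Interferon beta itself, Ifnb1, named after its values were seen, was at 0 in the 9 knockout libraries and at 0.777 and 0.746 in Control, the value of a single read in each.

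Of 9 genes tested for JAK-STAT signalling and its brakes, 3 were higher in CM KO than in Control, and none passed the test in EC KO or Total KO against Control. Over all genes 427 of 12976 were called higher in CM KO, and so were 8 of 9 macrophage and monocyte markers, whose part was not tested. The 3 genes were Socs3, an inhibitor of cytokine receptors (1.14 ± 0.27; limma, adjusted p = 0.0324), the phosphatase gene Ptpn6 (1.11 ± 0.25, adjusted p = 0.0268) and Stat3 (0.49 ± 0.11, adjusted p = 0.0233). The Stat3 estimate was not particular to CM KO. It was 0.51 ± 0.11 in EC KO minus Control (limma, adjusted p = 0.0811) and 0.32 ± 0.11 in Total KO minus Control (adjusted p = 0.397). In EC KO minus CM KO it was 0.02 ± 0.10. In EC KO minus Control, Socs3 was at 0.63 ± 0.27 (adjusted p = 0.448) and Ptpn6 at -0.17 ± 0.25 (adjusted p = 0.865). Jak1, the kinase shared by all interferon receptors, read 3269, 3985 and 4208 in EC KO hearts, 2271, 2364 and 2544 in CM KO hearts, and 4183, 4106 and 4500 in Total KO, against 3535 and 2947 in Control. It was higher by 0.67 ± 0.11 in EC KO minus CM KO (limma, adjusted p = 0.00205). The difference was 0.83 ± 0.11 in Total KO minus CM KO (adjusted p = 0.00113). Ptpn6 was lower in both of these comparisons, and Socs3 in Total KO minus CM KO.

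Of 15 genes for nucleic acid sensing, 1 was higher in CM KO than in Control, the endosomal RNA receptor gene Tlr7 (1.05 ± 0.21; limma, adjusted p = 0.0206). In EC KO minus CM KO, 5 were lower (Tlr7, Tlr9, Aim2, Irf5 and Myd88) and the RIG-I adaptor gene Mavs was higher, beside 1348 lower and 1131 higher of 12976 genes. In Total KO minus CM KO, Tlr7, Tlr9 and Irf5 were lower and Mavs higher, beside 1064 lower and 1064 higher of all genes. Irf5, the largest of these in EC KO minus CM KO, differed by -1.17 ± 0.28 (adjusted p = 0.0127). Tlr7, Tlr9 and Irf5 are known in macrophages and other myeloid cells, whose markers were lower in EC KO and Total KO than in CM KO as well, and the part of those cells was not tested.

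Of 6 genes tested for interferons and their receptors, none passed the test against Control in any knockout group. The interferon lambda receptor gene Ifnlr1 was lower in both comparisons with CM KO, with a difference of -0.53 ± 0.12 for EC KO (limma, adjusted p = 0.0109). For Total KO the difference was -0.67 ± 0.12 (adjusted p = 0.00528). Ifngr2 passed the test in EC KO minus CM KO alone (-0.32 ± 0.10; limma, adjusted p = 0.046). Its estimates were larger in EC KO minus Control (-0.39 ± 0.11, adjusted p = 0.221) and Total KO minus EC KO (0.45 ± 0.10, adjusted p = 0.157). The EC KO libraries, at 1379 to 1595, lay below every other library. Of 41 other interferon-induced genes tested, Trim34a was the one that changed against Control, in CM KO. In EC KO minus CM KO, Ifi30 (-1.08 ± 0.24), Ifi27l2a (-1.52 ± 0.42) and Slfn8 (-1.73 ± 0.53) were lower and Slfn5 (0.33 ± 0.09) and Trim34a higher, 5 of 41 beside 19.1% of all genes. Ifi27l2a had 855, 205 and 347 in CM KO, and Ifi30, a lysosomal reductase gene of antigen-presenting cells, was lower in Total KO than in CM KO too (-0.98 ± 0.24; adjusted p = 0.0178).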

How the data were processed

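RNA of 11 mouse heart libraries was measured from 400 ng of total RNA each, with a stranded kit that removes ribosomal RNA, per the labels' protocols. The authors deposited a signal per gene, read counts divided by 1 factor per library. TopHat2, HTSeq 0.8.0, DESeq2 (given as version 3.5) and mm10 are named in the submitters' processing notes, while the counting mode and strand setting are not given in the sources used here.

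Every one of 257620 deposited values was a whole multiple of its library's value of 1 read, within 0.05 reads, so whole reads were recovered. Recovered depth was 2268403 to 20105673 reads per library. Groups came from the titles. Values were fitted as log2(value + 1) with limma 3.58.1 in R 4.3.3 over all 4 groups, for genes with a mean of at least 10. P-values were adjusted by the Benjamini-Hochberg method over all 12976 genes tested, with calls under 0.05. A fold on this scale understates the change of low genes. Tests were first tried on simulated data.

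Alternatives were pseudocounts of 0.5 and 5, no filter, a mean of at least 50, other scalings, library weights, fits to the groups compared, leaving out libraries, and edgeR 4.0.16 and DESeq2 1.42.0 on recovered reads. Named genes are all 35 members, called genes of the pathway lists, and Ifnar1, Ifnar2, Irf3 and Cd36; 1 further gene of the rule is not reported here. Ifnb1, Trim6, Trim12c and Trim30d fall outside the rule and were chosen after their values were seen. Values of every library are given for called members and 14 others. Members and lists were chosen with earlier results of these data known. Gene coordinates are from RefSeq, while strands, exon lengths and exon overlaps are from GENCODE vM21 on mm10.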

Additional observations from a re-analysis of the deposited data

How the results depend on the processing

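Over 22 settings, 4244 of 4458 alternative values of single genes of the set stayed on the same side of the threshold within the spread of libraries and none reversed, while 172 moved by more than that spread, 26 lost a call and 16 gained one. Counts of called genes did not change in EC KO minus Control, Total KO minus Control or Total KO minus EC KO, at 0 in every setting including each left-out library. Few of all genes tested were called there either: 5 to 162, 1 to 93 and 0 to 116 over the settings, in that order of comparisons. DESeq2 called 2 in CM KO minus Control (Irf8 and Trim12a) and 4 in the F test, beside 1276 and 2743 of 12976 genes. Without a filter 2 were called in EC KO minus CM KO, Ifit2 and Trim12a, beside 2344 of 18704 genes. With library weights 6 were called in Total KO minus CM KO and 5 in the F test; over all genes that setting called 3553 in place of 2128 and 3279 in place of 1853.

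Leaving out 1 library at a time gave 1 to 2 calls in CM KO minus Control, 2 to 4 in EC KO minus CM KO, 1 to 3 in Total KO minus CM KO and 2 to 3 in the F test. Over all genes the same fits called 26 to 999, 1455 to 2582, 1036 to 2272 and 940 to 2084, in that order of comparisons, with the 26 from the fit without Control replicate 1. The count was 2 in CM KO minus Control without Control replicate 2. It was 2 in EC KO minus CM KO without EC KO replicate 1, CM KO replicate 1, CM KO replicate 3 or Total KO replicate 3, and 1 in Total KO minus CM KO without Total KO replicate 3 and also without CM KO replicate 1. Without replicate 1 of all 3 knockout groups, which an earlier analysis of these data doubted, 3 were called in EC KO minus CM KO. In Total KO minus CM KO that fit called 2 (Trim12a and Xaf1). Over all genes it called 1288 and 917 of 12954, in that order of comparisons.

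After rescaling to library totals the median log2 difference of all genes was -0.125 in EC KO minus CM KO, in place of -0.002, and -0.143 in Total KO minus CM KO, in place of -0.005. Calls over all genes became 640 higher and 2088 lower in EC KO minus CM KO, in place of 1131 and 1348, and 547 higher and 1750 lower in Total KO minus CM KO, in place of 1064 and 1064. In CM KO minus Control they became 568 higher and 237 lower, in place of 427 and 312. No paired analysis was possible because the libraries' label numbers are not shared between groups. Depth limits EC KO replicate 1, where 7 of the 35 genes had fewer than 10 reads.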
